A study of Mus musculus with 4 samples.

Results

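The genes of DNA replication and S phase were followed in mouse liver by bulk mRNA-seq. The 38 genes were taken by name from a deposited table of 13903 genes and all 38 were found there. They comprise 4 licensing genes, the 6 MCM2-7 subunits, 5 genes of helicase activation, 6 polymerase and primase genes, 6 genes of the sliding clamp, its loader and RPA, 2 genes of Okazaki fragment maturation, 4 genes of nucleotide supply, the cyclins E with E2F1, and the pair Uhrf1 and Dnmt1. The mice were OGT-floxed, on the C57BL/6J background, and the diet of every group was CDE, short of choline and supplemented with ethionine, a liver injury model. Mice labelled OGT-KO carried the virus AAV8-TBG-CRE, and mice labelled control carried AAV8-TBG-eGFP. OGT is the enzyme that attaches O-GlcNAc to proteins, and the TBG promoter is active in hepatocytes, so other liver cells were not the target of the recombinase. Livers were taken with no recovery or with a 7 day recovery from the CDE diet. This gave 4 conditions with 1 library each, for which RNA of 3 mice had been pooled equally. Age is not given in the sources used here.

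DNA replication is prepared in G1, when the origin recognition complex with CDC6 and CDT1 loads the MCM2-7 helicase on DNA. At the start of S phase CDC45 and the GINS complex join MCM2-7, and MCM10 takes part in activating the helicase. The helicase unwinds DNA, and primase with polymerases alpha, delta and epsilon copies it. PCNA, loaded by replication factor C, holds the polymerases on DNA, FEN1 and LIG1 join the fragments of the lagging strand, and ribonucleotide reductase supplies the nucleotides. Hepatocytes of the adult liver are mostly quiescent, and many of these genes are E2F targets that are transcribed when such cells enter the cycle after injury.

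The libraries held 19972699 to 22866431 reads on the listed genes, and levels are CPM, reads scaled to a library total of 1e+06. At this depth 3 reads correspond to 0.131 to 0.150 CPM. Since each condition has a single library, replicates are missing, so no test between conditions was made and no difference can be set against the spread between mice. Differences are given as log2(CPM + 0.1) in one library minus another, on which low genes differ less than their levels do, and 2-fold on this scale is the threshold used. Ratios of CPM are given with a 95% exact binomial (Clopper-Pearson) interval from the reads, which covers counting error only. Ogt, the targeted gene, was at 64.7 CPM in the control library and 55.3 CPM under the OGT-KO label with no recovery, and at 55.7 and 77.7 CPM after 7 days. After 7 days the targeted gene therefore stood above control under the OGT-KO label at equal library totals, which at face value goes against the label. At these totals the median of the genes that averaged 1 CPM or more was also above control, by 0.65 on the log2 scale. The Ogt values alone therefore do not settle the label, and every direction below is drawn between the libraries labelled OGT-KO and control.

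Sequences before the transcription start are shown for 3 of the 38 genes: Mcm6 and Uhrf1, which stood far above control in the libraries labelled OGT-KO, and Mcm10, which stood below. Each line holds 200 bases of the gene's strand, 5′ to 3′, that end at the base before the RefSeq start in GRCm38.p6. These 200 bases lie outside annotated exons. Capitals mark 8-letter E2F-type sequences (TTTCCCGC, TTTGGCGC, TTTGCCGC or TTTCGCGC, read on both strands). The Mcm6 window is chr1:128359706-128359905 on the minus strand, that of Uhrf1 is chr17:56304113-56304312 on the plus strand, and that of Mcm10 is chr2:5012792-5012991 on the minus strand.
Mcm6: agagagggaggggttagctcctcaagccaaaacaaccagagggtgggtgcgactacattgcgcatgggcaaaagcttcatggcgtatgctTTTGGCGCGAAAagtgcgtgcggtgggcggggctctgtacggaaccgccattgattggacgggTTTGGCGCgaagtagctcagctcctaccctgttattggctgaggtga
Uhrf1: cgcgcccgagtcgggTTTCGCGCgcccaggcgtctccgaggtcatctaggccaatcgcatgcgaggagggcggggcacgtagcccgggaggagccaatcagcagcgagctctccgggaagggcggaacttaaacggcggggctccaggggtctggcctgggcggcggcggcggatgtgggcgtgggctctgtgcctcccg
Mcm10: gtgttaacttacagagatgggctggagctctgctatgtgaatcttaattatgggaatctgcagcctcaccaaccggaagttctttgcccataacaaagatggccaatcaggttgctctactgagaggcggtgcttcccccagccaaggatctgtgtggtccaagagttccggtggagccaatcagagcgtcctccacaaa
The Mcm6 window holds 3 matches, of which a pair on opposite strands overlap, the Uhrf1 window holds 1, and the Mcm10 window holds none. Uhrf1 has another listed start, whose window has no match. The windows of Rrm2, Mcm2, Rrm1 and Tyms have no match either, though these genes were at least 2-fold above control at both times. The 3 windows shown therefore do not tell whether matches go with the direction of a difference, which was not tested.

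A promoter entry was found for 30 of the 38 genes. Of these 30 genes, 13 (43.3%) held an E2F-type sequence within 250 bases before to 50 bases after a start, namely Orc1, Cdc6, Cdt1, Mcm3, Mcm5, Mcm6, Mcm7, Pola1, Pold1, Rfc3, Lig1, Uhrf1 and Dnmt1. Among the promoters of 10298 genes compared in these libraries the share was 4.57%. CCAAT, searched on both strands as well, was in 18 of the 30 (60.0%) against 42.8%, and the CHR sequence TTTGAA, known from promoters of mitotic genes, was in 4 of the 30 (13.3%) against 14.6%. The median GC content was 57.7% in the windows of the replication genes and 60.3% in those of the compared genes. A match describes the letters in the window and not binding.

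Replication genes were mostly above control under the OGT-KO label with no recovery. On the 2-fold threshold 30 of the 38 were higher, 1 was lower and 7 lay between, where 37.2% of the 12989 genes that averaged 1 CPM or more were higher and 5.15% lower. The median difference of the 38 was 1.63 on the log2 scale, a 3.10-fold level. After 7 days 31 were higher, 1 was lower and 6 lay between, where 35.9% of all compared genes were higher and 3.76% lower, and the median difference was 2.25, a 4.75-fold level. At both times 28 of the 38 were at least 2-fold higher, against 31.4% of all compared genes. The gene that was lower at both times was Mcm10. By any amount 36 and then 37 of the 38 were higher, where 79.4% and 81.7% of all compared genes were. The ratio interval lay above 1 for the same numbers, 36 and 37, where 72.6% and 73.7% of all compared genes had such an interval. The 38 include Orc1, whose mean of 0.61 CPM is below the filter used for the background, so 37 of the 38 passed it.

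At equal library totals the whole distribution was shifted, and the 100 genes of highest mean took 42.8% and 45% of the reads in the control libraries and 34.1% and 34.3% in those labelled OGT-KO. The median of all compared genes was 0.69 above control with no recovery and 0.65 after 7 days on the log2 scale. Relative to this median the replication genes stood 0.94 and 1.60 higher. In a liver sample a gene's level reflects both the number of cells that transcribe it and the RNA per cell, and fewer cells of a type and less RNA per cell cannot be told apart.

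**Figure D1:**
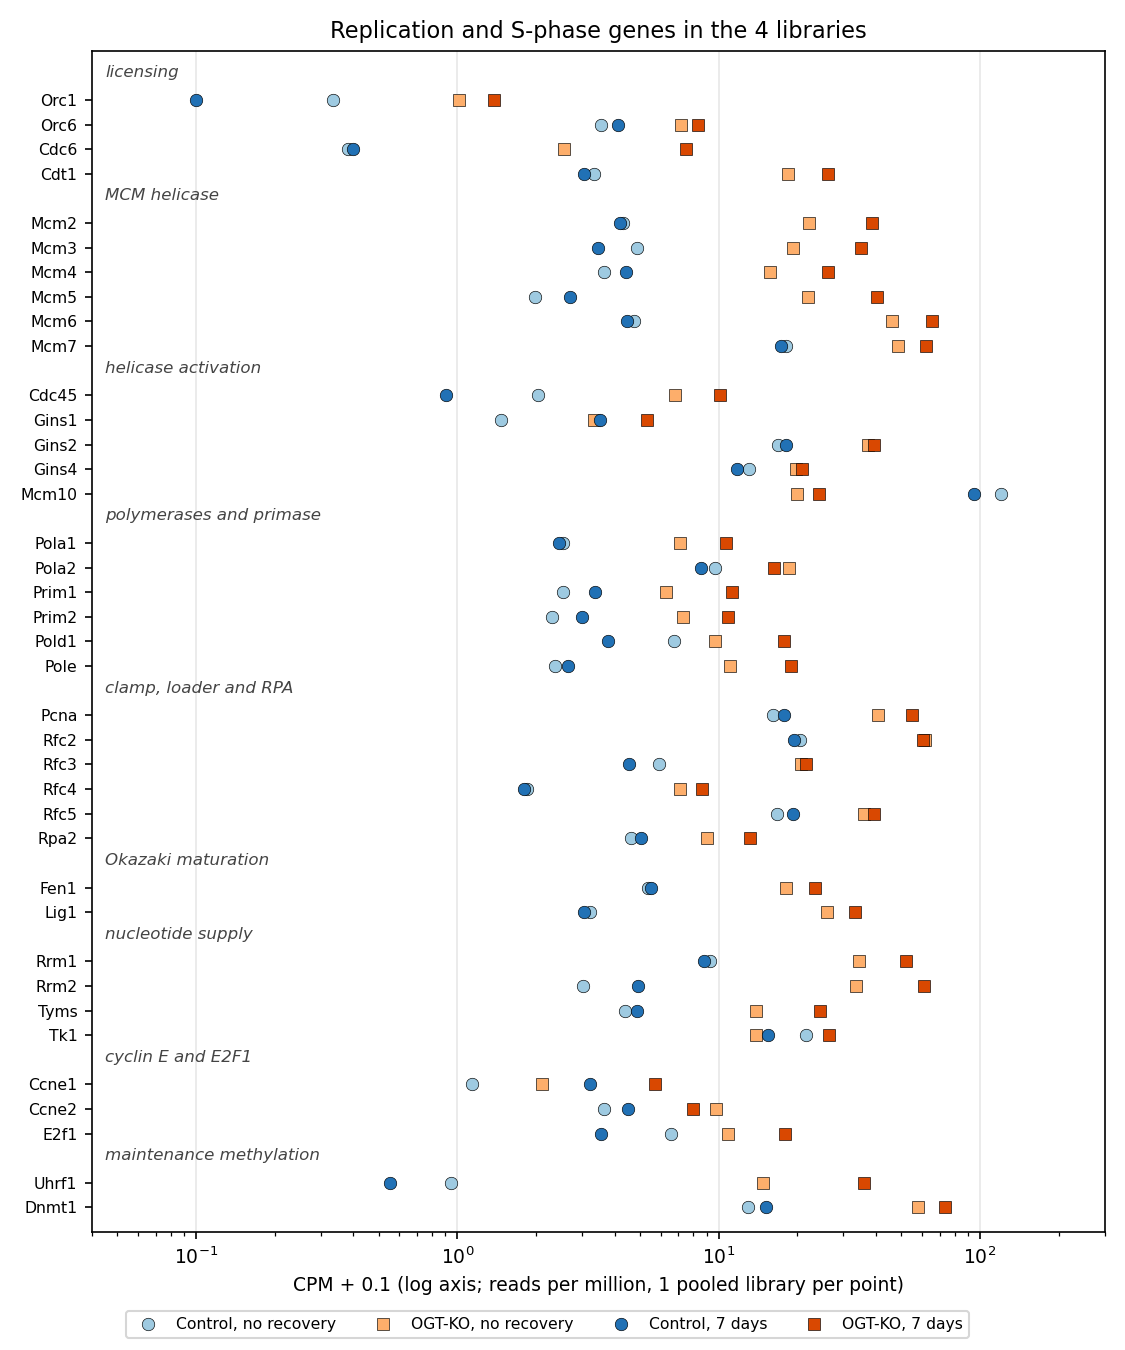
CPM + 0.1 on a log axis for each of the 38 genes, grouped by role, with 1 point per pooled library (circles, control; squares, OGT-KO). For 34 genes both squares lie to the right of both circles, and for Mcm10 both lie to the left.

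The plot of levels by library shows how far the conditions were apart for single genes. Both libraries labelled OGT-KO were above both control libraries for 34 of the 38 genes, where 73.7% of all compared genes had this order. The order was the opposite for Mcm10, and the libraries overlapped for Gins1, Tk1 and Ccne1.

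All 4 licensing genes were at least 2-fold above control under the OGT-KO label at both times. Cdt1, which brings the helicase to the origin, was at 3.25 CPM in control and 18.2 CPM in OGT-KO with no recovery, and at 2.95 and 26.1 CPM after 7 days. The ratios were 5.62 (4.35 to 7.36) and 8.82 (6.74 to 11.7). Cdc6, the ATPase that works with the origin recognition complex, was at 0.28 and 2.45 CPM with no recovery and at 0.30 and 7.40 CPM after 7 days. It was thus scarcely detected under the control label, and its ratios of 8.68 (3.75 to 24.6) and 24.6 (11.1 to 68.1) have wide intervals. Orc6, an origin recognition subunit, differed least of the licensing genes, with 3.43 and 7.08 CPM and then 4.01 and 8.24 CPM, a ratio of 2.06 at each time. Orc1, the largest subunit of that complex, had 5 reads in control and 21 in OGT-KO with no recovery, and 0 and 29 reads after 7 days. Against a floor of 3 reads in the control library, Orc1 was at least 8.56-fold higher in OGT-KO after 7 days if its 29 reads are taken as exact, and the counting interval of the ratio begins at 6.52. Exons of Vps35 on the other strand cover 6.93% of the Orc6 exon bases, and Vps35 was at 57.1 to 76.4 CPM.

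The 6 subunits of the MCM2-7 helicase were higher in OGT-KO at both times, each by at least 2-fold. Their summed level was 37.1 CPM in control and 173 CPM in OGT-KO with no recovery, and 36.0 and 268 CPM after 7 days. Mcm5 had the largest ratios. It was at 1.88 CPM in control and 21.8 CPM in OGT-KO with no recovery, and at 2.60 and 40.4 CPM after 7 days, ratios of 11.6 (8.40 to 16.4) and 15.5 (11.7 to 20.9). Mcm7 was at 18.1 and 48.4 CPM and then at 17.3 and 62.0 CPM, and its ratios of 2.68 (2.38 to 3.02) and 3.59 (3.19 to 4.05) were the smallest of the 6. The other subunits lay between, with ratios of 4.03 (Mcm3) or more with no recovery, up to 9.82 (Mcm6), and of 6.08 (Mcm4) or more after 7 days, up to 15.0 (Mcm6).

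The subunits enter the helicase in equal numbers, and their transcript levels per length were compared using the exon lengths of GENCODE M21. In control with no recovery Mcm7 stood at 4.08 CPM per kilobase, 3.22 times the next subunit, Mcm3, at 1.27. The highest subunit was 8.66 times the lowest in that library and 6.61 times the lowest in control after 7 days. In the libraries labelled OGT-KO the same ratio was 3.46 with no recovery and 2.53 after 7 days, when Mcm6 and Mcm7 both stood at 14.0 CPM per kilobase. Mcm2 was the lowest in both. Its exons of all transcripts span 6956 bases together, against 3589 (Mcm4) to 4666 (Mcm6) for the other subunits. The ratios of highest to lowest therefore depend on the length used. Exons of Mcm7 overlap those of Cops6 and Ap4m1 on the other strand, over 1.45% and 7.25% of their length. Both neighbours had over 27 CPM in each library, and whether reads were counted by strand is not stated.

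Among the genes of helicase activation the levels went both ways. Cdc45, a part of the active helicase, was at 1.93 and 6.69 CPM with no recovery and at 0.80 and 10.1 CPM after 7 days, ratios of 3.47 (2.44 to 5.02) and 12.6 (7.57 to 22.3). The GINS subunits differed less. Gins1 was at 1.36 CPM in control and 3.24 CPM in OGT-KO with no recovery and at 3.40 and 5.23 CPM after 7 days, so the control library after 7 days lay above the OGT-KO library with no recovery. Gins2 had ratios of 2.23 and 2.17, and Gins4 of 1.51 and 1.79. Exons of Gse1 on the other strand cover 67.3% of the Gins2 exon bases, and Gse1 was at 28.4 and 59.8 CPM with no recovery and at 32.8 and 57.8 CPM after 7 days, so reads of Gins2 and Gse1 may not be told apart.

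Mcm10, a factor of helicase activation, was the exception of the set. It was at 121 CPM in control and 19.9 CPM in OGT-KO with no recovery, and at 94.6 and 24.0 CPM after 7 days. OGT-KO was thus at 0.165 (0.149 to 0.182) and 0.254 (0.230 to 0.280) of the control level. Per kilobase of exon Mcm10 was the highest of the 38 genes in both control libraries, at 15.7 and 12.3 CPM per kilobase, and stood at 2.59 and 3.12 CPM per kilobase in those labelled OGT-KO. No other gene model shares exon bases with Mcm10 in GENCODE M21. With Mcm10 the 38 genes summed to 359 and 756 CPM with no recovery and 331 and 1054 CPM after 7 days, and without it to 239 and 736 CPM and to 236 and 1030 CPM.

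At equal library totals the polymerase and primase genes were all above control. Their ratios were 1.44 to 4.84 at the first time and 1.91 to 7.36 at the second. Pole, the catalytic subunit of the leading strand polymerase, had the largest ratios of them, with 2.26 and 10.9 CPM and then 2.55 and 18.8 CPM. Pola2, the regulatory subunit of the polymerase that starts each strand, had the smallest difference summed over both times, at 9.60 and 18.5 CPM and then 8.46 and 16.1 CPM. Its ratios of 1.93 (1.63 to 2.29) and 1.91 (1.58 to 2.30) stayed under 2-fold. Pold1, the catalytic subunit of polymerase delta, was at 6.63 and 9.58 CPM with no recovery and at 3.65 and 17.7 CPM after 7 days, so its ratio was 1.44 (1.16 to 1.80) at the first time and 4.85 (3.77 to 6.31) at the second. At the first time Pold1 differed by 0.52 on the log2 scale, less than the 0.69 of the median compared gene.

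The genes of the clamp, its loader and RPA had median differences of 1.46 with no recovery and 1.64 after 7 days on the log2 scale. Pcna, the clamp, was at 16.1 and 40.6 CPM with no recovery and at 17.7 and 55.0 CPM after 7 days, ratios of 2.52 (2.23 to 2.86) and 3.11 (2.76 to 3.50). Rfc2, a subunit of the loader, was at 20.3 and 61.7 CPM and then 19.3 and 60.4 CPM. Rfc4 had the largest ratios of this group, 4.02 (2.80 to 5.91) and 5.0 (3.46 to 7.43), at 1.74 and 7.00 CPM and then 1.70 and 8.51 CPM. Rfc5 had the smallest difference summed over both times, with ratios of 2.17 (1.91 to 2.46) and 2.04 (1.80 to 2.30), at 16.6 and 35.9 CPM and then 19.2 and 39.0 CPM. The exons of Rfc2, Rfc4 and Rfc5 overlap Lat2, Eif4a2 and Wsb2 on the other strand over 15.1%, 12.7% and 10.7% of their bases. Of these neighbours Lat2 was also higher in OGT-KO, at 0.52 and 7.92 CPM and then 0.60 and 6.29 CPM, as was Wsb2, at 54.7 and 123 CPM and then 49.4 and 104 CPM. Eif4a2 was at 163 and 165 CPM and then 183 and 152 CPM.

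Both genes of Okazaki fragment maturation were higher at both times. Lig1, the ligase that seals the fragments, was at 3.10 and 25.8 CPM with no recovery and at 2.95 and 33.1 CPM after 7 days, ratios of 8.30 (6.42 to 10.9) and 11.2 (8.60 to 14.9). Fen1, the nuclease that trims their ends, was at 5.27 and 18.0 CPM and then 5.41 and 23.2 CPM. An antisense gene model covers 78.8% of the Fen1 exon bases. Zswim9 exons on the other strand cover 5.79% of the Lig1 exon bases, with Zswim9 at 4.05 and 7.52 CPM and then 2.45 and 7.22 CPM.

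The largest ratios in nucleotide supply were those of Rrm2, the subunit of ribonucleotide reductase made in S phase. Rrm2 was at 2.92 and 33.3 CPM with no recovery and at 4.81 and 61.1 CPM after 7 days, ratios of 11.4 (8.81 to 15.1) and 12.7 (10.3 to 15.8). Rrm1, its partner subunit, was at 9.17 and 34.2 CPM and then 8.71 and 52.2 CPM. Tyms, which makes thymidylate, had ratios of 3.23 and 5.13. Tk1, the thymidine kinase of the salvage route, did not follow them. It was at 21.5 CPM in control and 13.8 CPM in OGT-KO with no recovery, a ratio of 0.643 (0.555 to 0.744), and at 15.3 and 26.3 CPM after 7 days, a ratio of 1.72 (1.50 to 1.98). Afmid, which shares 1.60% of the Tk1 exon bases on the other strand, was at 36.8 and 11.1 CPM and then 33.5 and 12.1 CPM.

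Cyclin E drives entry into S phase and E2F1 is the transcription factor released when RB is phosphorylated. E2f1 was at 6.44 and 10.7 CPM with no recovery and at 3.45 and 17.9 CPM after 7 days, ratios of 1.66 (1.34 to 2.06) and 5.18 (4.01 to 6.79). With no recovery E2f1 differed by 0.72 on the log2 scale, close to the 0.69 of the median compared gene. Ccne1 was at 1.03 and 2.01 CPM and then 3.10 and 5.63 CPM, so it was higher after 7 days under both labels. Ccne2 was at 3.53 and 9.62 CPM and then 4.41 and 7.89 CPM. The exons of Ccne2 overlap those of Ints8 over 17.4% of their bases.

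Uhrf1 and Dnmt1 copy DNA methylation onto the new strand, UHRF1 by recognising hemimethylated DNA and DNMT1 as the methyltransferase. Uhrf1 had the largest difference of all 38 genes at both times. It was at 0.85 and 14.7 CPM with no recovery and at 0.45 and 35.8 CPM after 7 days, with ratios of 17.3 (10.8 to 29.6) and 79.5 (41.6 to 174). Dnmt1 was at 12.8 and 57.9 CPM and then 15.1 and 73.6 CPM, ratios of 4.53 (3.97 to 5.18) and 4.88 (4.31 to 5.54).

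**Figure D2:**
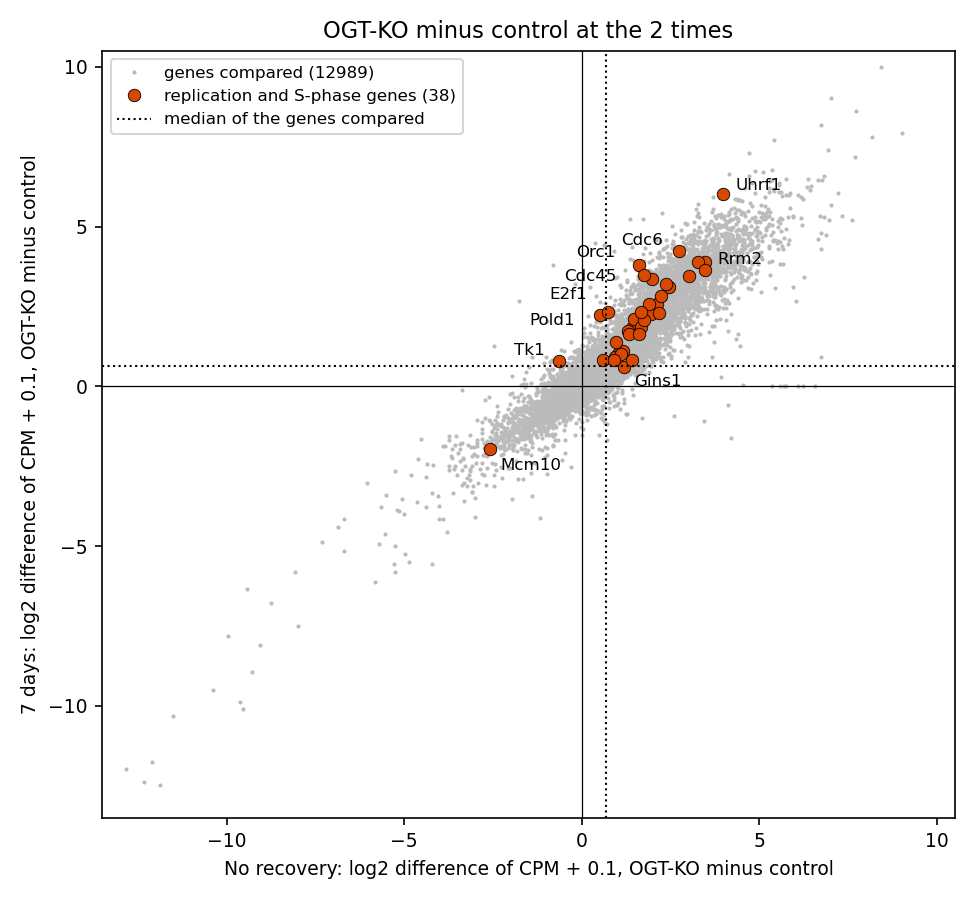
Difference between OGT-KO and control with no recovery (x axis) and after 7 days (y axis), both as log2(CPM + 0.1), for the 38 genes (orange) over the 12989 compared genes (grey), with dotted lines at the medians of the compared genes, 0.69 and 0.65. Uhrf1 stands highest at 3.96 and 6.03, Mcm10 lies below 0 on both axes, and Tk1 lies below 0 on the x axis.

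The scatter of the differences at both times shows most of the 38 genes in the upper right. Pold1, E2f1, Cdc45 and Orc1 stand above the main cloud, with a larger difference after 7 days, and the pair of axes have no library in common.

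**Figure D3:**
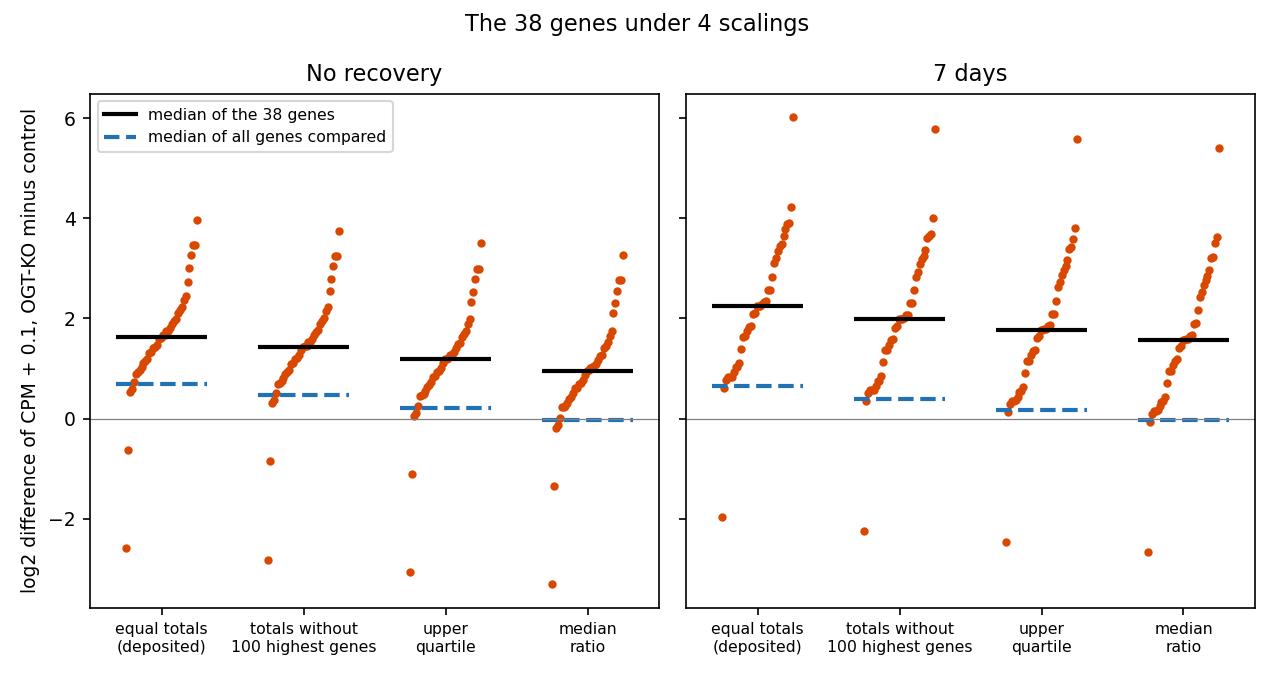
Difference between OGT-KO and control as log2(CPM + 0.1) for each of the 38 genes (points, sorted) under 4 scalings of the libraries, with no recovery (left) and after 7 days (right), the median of the 38 as a black line and that of all compared genes as a dashed blue line. The black line stays about 0.94 to 0.98 above the blue line on the left and 1.60 above it on the right.

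Because of the shift at equal totals, the differences were also computed with 3 other scalings, as the plot of scalings shows. With median-ratio scaling 18 of the 38 genes were at least 2-fold higher with no recovery and 25 after 7 days, where 21% and 23% of all compared genes were. The sign was the same under all 4 scalings for 36 of the 38 genes with no recovery, with Mcm10 and Tk1 lower, and for 37 after 7 days, with Mcm10 lower. The exceptions were Gins4 and Pold1 at the first time and Gins1 at the second, each of which was below control under at least 1 scaling.

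The question of what changed over the 7 days was asked under each label. In OGT-KO 35 of the 38 genes were above their level with no recovery, where 47.4% of all compared genes were, with a median difference of 0.56 against -0.02 for all compared genes. The ratio interval lay above 1 for 28 of the 38 and below 1 for none, where 25.3% of all compared genes were above and 28.5% below. In control 18 of the 38 were above, where 40.5% of all compared genes were, and the median was -0.03 against -0.06. There the interval lay above 1 for 3 genes (Rrm2, Gins1 and Ccne1), against 12.9% of all compared genes, and below 1 for 6 (Cdc45, E2f1, Pold1, Tk1, Mcm3 and Mcm10), against 26.6%.

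Few genes passed 2-fold with recovery. In OGT-KO these were Cdc6, with a ratio of 3.02 (2.22 to 4.17), Ccne1 with 2.80 (1.98 to 4.01) and Uhrf1 with 2.44 (2.15 to 2.78), 3 of the 38 against 2.02% of all compared genes, and none of the 38 was 2-fold lower, against 1.23%. The smallest value in OGT-KO was that of Ccne2, at 0.820 (0.669 to 1.0). In control Ccne1 with 3.00 (1.82 to 5.12) and Gins1 with 2.50 (1.59 to 4.0) were higher, against 1.35% of all compared genes. Cdc45 with 0.415 (0.218 to 0.756) was 2-fold lower, as was Orc1, which had only 5 and then 0 reads, against 3.83%.

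The 6 MCM subunits were higher after 7 days in OGT-KO, with ratios of 1.28 (Mcm7) to 1.85 (Mcm5), and the intervals of all 6 lay above 1. In control their ratios ran from 0.706 (Mcm3) to 1.38 (Mcm5), and only the interval of Mcm3 left out 1. The 4 genes of nucleotide supply had ratios of 1.52 to 1.90 in OGT-KO, with all 4 intervals above 1. The clamp, loader and RPA genes had a median ratio of 1.15 in OGT-KO, with only Pcna and Rpa2 having an interval above 1.

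**Figure D4:**
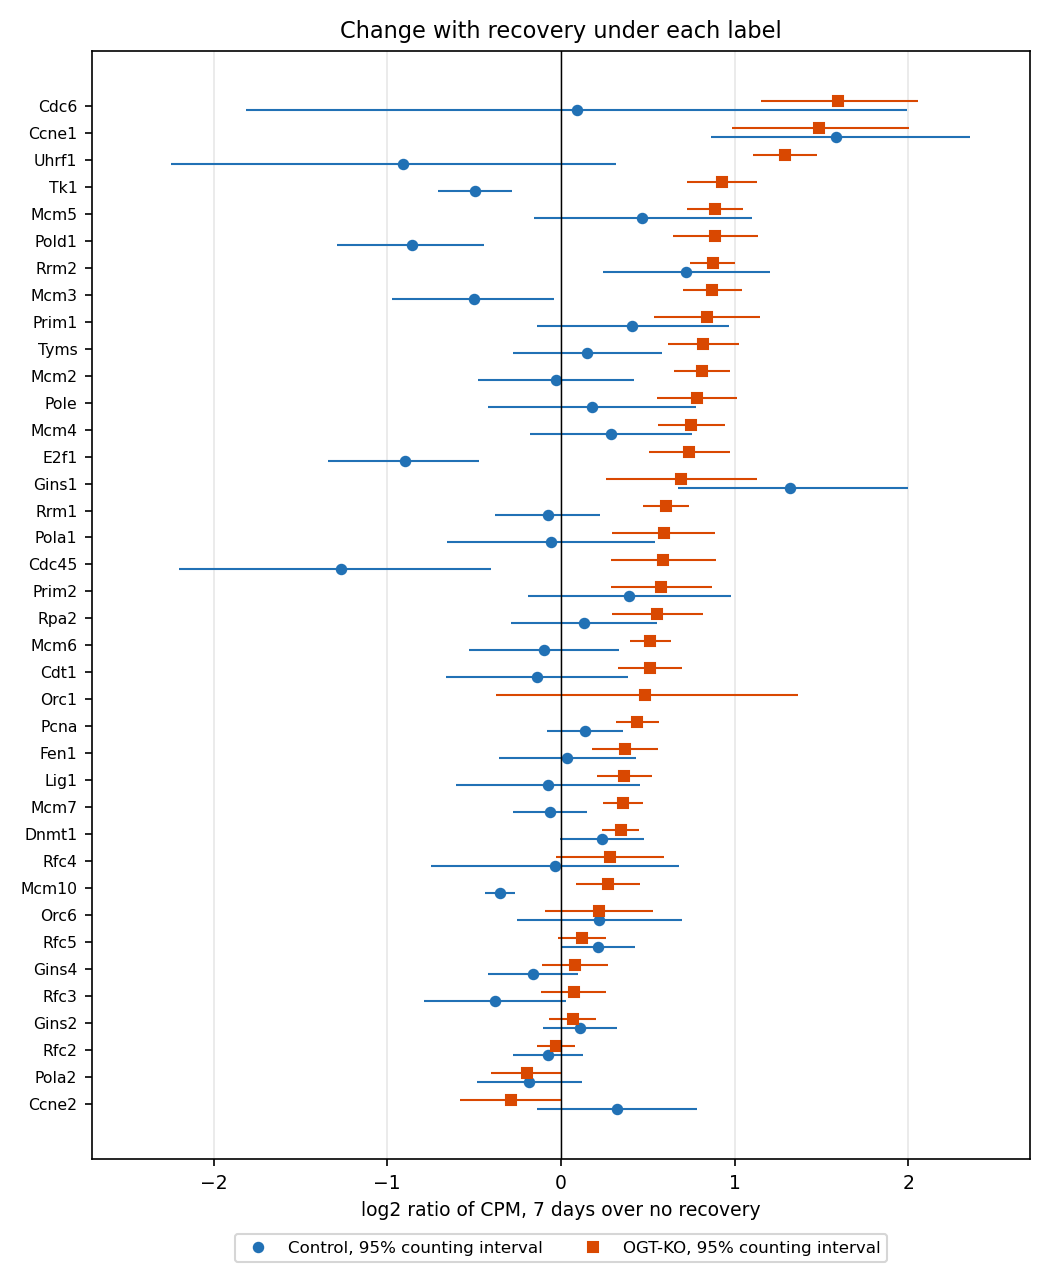
Log2 ratio of CPM after 7 days over CPM with no recovery for each gene, in control (blue circles) and OGT-KO (orange squares), with 95% counting intervals as lines. Orc1 has no control point because it had 0 reads there after 7 days. Most orange intervals lie right of 0 (28 genes), and most blue intervals cross it.

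The plot of recovery ratios puts both labels side by side. The difference of the differences, recovery in OGT-KO minus recovery in control, had a median of 0.43 over the 38 genes against 0.06 over all compared genes. It was above 0 for 31 of the 38, where 56% of all compared genes were, and was at least 2-fold for 8, where 5.81% were. These 8 were Orc1 (2.19), Uhrf1 (2.07), Cdc45 (1.75), Pold1 (1.72), E2f1 (1.62), Cdc6 (1.49), Tk1 (1.41) and Mcm3 (1.36) on the log2 scale. The lowest values were those of Ccne2 (-0.60) and Gins1 (-0.58). Each of these values rests on all 4 libraries. The control part rests on 5 and then 0 reads for Orc1, which is below the background filter, and on 18 and then 9 for Uhrf1. For Orc1 the recovery difference in control ran from -1.99 to -0.03 over the alternative settings. For Uhrf1 the interval of the control ratio (0.211 to 1.25) held 1.

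Genes of the neighbouring steps of the cell cycle were counted over whole lists, and each count of 2-fold higher genes stands beside the 37.2% of all compared genes that were higher with no recovery and the 35.9% after 7 days. The 16 mitotic genes were all at least 2-fold higher in OGT-KO at both times, with medians of 3.50 and 4.37 on the log2 scale, above the 1.63 and 2.25 of the replication genes. Mki67, the proliferation antigen, was at 3.01 and 38.5 CPM with no recovery and at 3.55 and 109 CPM after 7 days. Of 35 other genes of the replication machinery 18 were 2-fold higher at each time and 1 was lower, Rnaseh2c with no recovery, with medians of 1.09 and 1.10. Cdc7, the kinase that fires origins, had the largest difference summed over both times, at 0.14 and 4.46 CPM and then 0.10 and 5.14 CPM.

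The list of 12 further genes of nucleotide supply went both ways, with 7 higher and 1 lower with no recovery and 6 higher and 1 lower after 7 days. Shmt1, a folate enzyme that hepatocytes also express, was the lower one at 142 and 41.9 CPM and then 133 and 64.9 CPM. Of 7 genes of histone supply and chromatin assembly 5 and then 4 were higher. Among 24 genes of G1/S control 11 and then 13 were higher, and Ccnd1, cyclin D1, was at 42.5 and 251 CPM and then 47.3 and 437 CPM. E2f8, a repressing member of the E2F family, was lower at 18.5 and 6.91 CPM with no recovery. The CDK inhibitors, which hold the cycle back, were higher too, 6 of 7 with no recovery and 7 of 7 after 7 days. Cdkn1a, which encodes p21, was at 10.9 and 191 CPM with no recovery and at 5.86 and 93.1 CPM after 7 days.

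**Figure D5:**
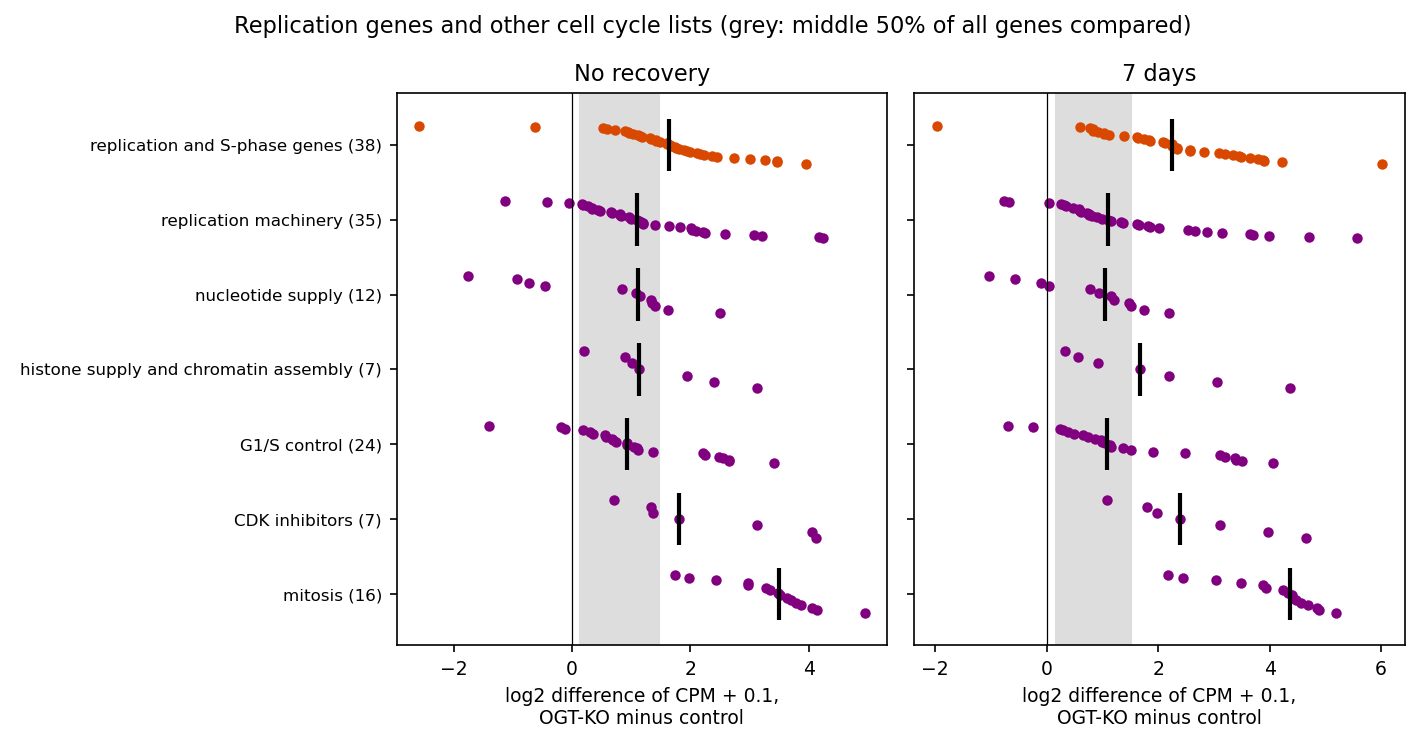
Difference between OGT-KO and control as log2(CPM + 0.1), with no recovery (left) and after 7 days (right), for the 38 replication and S-phase genes (orange) and 6 other lists (purple), with 1 point per gene, a black line at each list's median and a grey band over the middle 50% of all compared genes. The mitotic genes lie furthest right, with medians of 3.50 and 4.37.

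The plot by list shows the replication genes between the mitotic list and the other replication machinery at both times. The medians of the CDK inhibitors, 1.80 and 2.39, also lay above those of the replication genes, 1.63 and 2.25.

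All 11 hepatocyte markers were listed, with Alb, the albumin gene, at 41362 to 54435 CPM. Markers of several liver cell types differed between the same libraries, and their counts stand beside the same shares of all compared genes, 37.2% and 35.9% higher and 5.15% and 3.76% lower. Of 11 hepatocyte markers 5 were at least 2-fold lower in OGT-KO at each time, not all of them the same genes, and 0 were 2-fold higher. The summed level of the 11 was 101592 CPM in control and 72154 CPM in OGT-KO with no recovery and 111686 and 86315 CPM after 7 days. The 8 stellate cell and fibroblast markers were all higher, summing to 160 and 3052 CPM and then 116 and 3917 CPM. The 6 bile duct markers were all higher, at 53.7 and 1170 CPM and then 69.9 and 1483 CPM. Of 10 macrophage and monocyte markers 9 and then 10 were higher, at 233 and 1024 CPM and then 87.5 and 824 CPM. The 7 endothelial markers, 4 and then 3 of them higher, summed to 243 and 496 CPM and then 165 and 363 CPM.

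The blood cell lists were low. Of 10 T, NK and B cell markers 7 were listed and 6 of them were higher at each time. The 7 summed to 2.78 and 9.97 CPM and then 1.50 and 5.94 CPM, with Cd8a at 0 reads in control after 7 days. All 7 were under 1 CPM in both control libraries. Only 1 of the 7 averaged 1 CPM or more, so their counts are not comparable with the shares of all compared genes. Of 5 neutrophil markers 4 were listed and all 4 were higher, at 5.50 and 29.4 CPM and then 2.20 and 44.8 CPM. Of 5 erythroid markers Klf1 alone was listed, at 4.09 and 0.83 CPM and then 3.81 and 1.06 CPM. The part of these cells in the levels of the replication genes was not tested.

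With recovery in OGT-KO the lists did not all move with the replication genes. The median difference was -0.47 for the macrophage list, -0.43 for the endothelial list and -0.95 for the T, NK and B cell list. It was 0.31 for the stellate, 0.32 for the bile duct and 0.30 for the hepatocyte list, and 0.65 for the 4 neutrophil markers, beside 0.56 for the 38 replication genes. The 16 mitotic genes had a larger median, 0.99, with 8 at least 2-fold higher, against 2.02% of all compared genes. Medians were 0.24 for the other replication machinery, 0.23 for further nucleotide supply and 0.33 for histone supply. They were 0.25 for G1/S control and 0.09 for the CDK inhibitors.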

How the data were processed

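Liver mRNA libraries of 4 conditions, 1 each, were compared. The authors deposited a table named for DESeq2 normalisation, but each column sums to 1e+06, so the deposited values are CPM, and 100% of them in every library are whole multiples of 1 read (tolerance 0.02 read). The submitters' processing notes name STAR, DESeq2 and GRCm39; the counter, strand setting and filter are not given in the sources used here. Whole reads were recovered from the CPM for the counting intervals, which like the floor of 3 reads cover counting error only. An exact binomial test on these reads compares libraries and not conditions. With Benjamini-Hochberg adjusted values under 0.05 it called 11439, 11253, 4044 and 6317 of 12989 genes (genotype with no recovery and after 7 days, recovery in control and in OGT-KO).

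Groups came from the sample labels. Differences used a pseudocount of 0.1 CPM, and genes that averaged 1 CPM or more were the background. The members and all gene lists were chosen with earlier results of these data known. In each role group the text names the gene with the highest mean CPM and those with the largest and smallest summed difference over both times, and further genes were named after their values were seen. Exon lengths and overlaps came from GENCODE M21 (GRCm38), in which all 38 genes were matched by identifier, and promoter windows from RefSeq (GRCm38.p6), in which 30 matched. In 32 of 37 windows the last 30 bases were found in a transcript of the gene, which the window of Mcm6 was not among. In a simulation 200 genes, picked at random from those that averaged 1 CPM or more, were changed 4-fold. At the 2-fold threshold 200, 200, 199 and 200 of them were recovered in the 4 comparisons. The simulated reads held counting error only, so this does not bear on the spread between mice. Alternatives were other pseudocounts, filters, scalings and thresholds. Python 3.11.15, numpy 2.4.6, pandas 2.3.3, scipy 1.17.1 and matplotlib 3.10.9 were used.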

Additional observations from a re-analysis of the deposited data

Results flagged for a closer look

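For 6 of the 38 genes the change over 7 days had opposite signs under the labels while the counting intervals of both ratios left out 1. How many of all compared genes had this pattern was not counted, so 6 of 38 cannot be called unusual. In control the interval lay above 1 for 12.9% of all compared genes and below 1 for 26.6%. In OGT-KO these shares were 25.3% and 28.5%. The difference between the labels was not tested, since each condition has 1 library. On the log2(CPM + 0.1) scale Mcm3 was 0.87 higher after 7 days in OGT-KO and -0.49 in control. Cdc45 was at 0.58 and -1.17, Pold1 at 0.88 and -0.84, E2f1 at 0.74 and -0.88, and Tk1 at 0.92 and -0.49. Mcm10 was at 0.27 and -0.35, with a level that stayed below control in OGT-KO at both times. The difference between OGT-KO and control also had opposite signs at the 2 times for Tk1, at 0.78 after 7 days and -0.63 with no recovery, and this was not tested either. The counting intervals of both Tk1 ratios left out 1.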

How the results depend on the processing

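No leave-one-out or blocked fit could be made with 1 library per condition, and no paired analysis was possible because the labels give no replicate numbers. No difference of 2-fold or more changed its sign under the alternatives. With a pseudocount of 10 CPM, 11 of the 38 genes were 2-fold higher in OGT-KO with no recovery (median 0.76) and 20 after 7 days (median 1.04). Of all compared genes 11.8% and 12.3% were higher, with medians of 0.36 and 0.35. With recovery 0 of the 38 were higher or lower in control, against 0.0924% and 0.162%, and 0 higher in OGT-KO, against 0.316%. With a pseudocount of 1 CPM, 1 gene was higher and 0 lower with recovery in control, against 0.239% and 1.02% of all compared genes. Among the 23 genes that averaged 10 CPM or more, 19 were higher at each time, where 25.8% and 24% of all genes at that level were. With recovery 0 of these 23 were higher or lower in control, against 0.39% and 1.45%, and 1 was higher in OGT-KO, against 1.29%. Upper-quartile scaling gave medians of 1.19 and 1.77 and 2 genes lower with no recovery, where 9.7% of all compared genes were lower. Median-ratio scaling gave medians of 0.96 and 1.57. With it 18 were higher and 2 lower with no recovery, where 21% of all compared genes were higher. Under median-ratio scaling 13.7% and 10.5% of all compared genes were lower, against 5.15% and 3.76% at equal totals. At 4-fold, 11 genes were higher with no recovery and 22 after 7 days, where 17.1% and 19.4% of all compared genes were. After 7 days 0 were lower, against 0.97%. With recovery 0 were higher or lower in control, against 0.0924% and 0.3%, and 0 higher in OGT-KO, against 0.208%. When the exact test on reads was also required, 1 gene was lower with recovery in control. The cause of these differences was not tested. The depth limits Orc1, Cdc6 and Uhrf1, which were under 1 CPM in both control libraries.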
